A study of Mus musculus with 8 samples.

Results

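The genes described here are 10 genes of hepatic stellate cells, collagen and fibrosis, namely Col1a1, Col1a2, Col3a1, Lox, Timp1, Tgfb1, Pdgfrb, Des, Lrat and Acta2. They were found by name, through the accession that each array probe carries, and make up 10 of the 19752 gene symbols on the array. They were read by 11 probes, 2 for Lox and 1 for each other gene. The study profiled liver RNA of 4 mice lacking Rap1 and 4 wild-type mice on Agilent single-colour arrays, 1 mouse per array, to compare gene expression at an age the study places before obesity sets in. RAP1, encoded by Terf2ip, is a telomeric protein that also binds elsewhere in the genome. All mice were 10 weeks old and of a mixed C57BL6 and 129SV background. Per the study's methods the deletion was made with Cre under the adenoviral EIIa promoter, so Rap1 -/- mice lacked the gene in the whole body and not in liver cells alone. The labels give neither sex nor feeding state, and the study describes its young mice as females. The study also reports a liver profiling of fasted females of this age, and the labels do not say to which profiling these arrays belong. The labels name no treatment that induces fibrosis.

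Stellate cells lie between hepatocytes and the sinusoidal endothelium and store vitamin A as retinyl esters, which the enzyme LRAT makes. When liver is injured they are driven by transforming growth factor beta and by platelet-derived growth factor to become myofibroblasts, which gain smooth muscle actin, lay down type I and type III collagen and secrete TIMP1, an inhibitor of the proteases that remove it. Lysyl oxidase then cross-links the fibrils. In whole-liver RNA, fewer cells of a type and less RNA per cell cannot be told apart.

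Levels are given as the log2 of a probe's processed signal relative to the 75th percentile of its own array, so a level of 0 is the signal at that percentile and levels of different probes are not set against each other. Differences are Rap1 -/- minus wild type on the log2 scale, from limma, with its standard error (SE). The arrays lay on 2 slides, each with 2 mice of each genotype, while wild-type RNA was always in positions 1 and 2 and knockout RNA in positions 3 and 4, so position and genotype cannot be told apart. Of 55681 probes, 50.04% to 65.3% per array exceeded background clearly, and correlations between arrays over the tested genes ran from 0.984 to 0.993. The targeted gene checked the labels, since Terf2ip probe A_52_P381806 was at least 18.96-fold lower in knockout liver (limma, adjusted p = 7.09e-06 over probes) and was above background on 0 of the 4 knockout arrays. The other Terf2ip probe, A_55_P2094079, was 2.30-fold higher (limma, adjusted p = 0.127 over probes), and the sources used here do not say which of them lies in the deleted part.

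Of the 10 genes, 9 were well above background on all 8 arrays and entered the test, and Lox did not. At an adjusted p under 0.05 (limma), 0 of the 9 passed, where 2 of 14066 tested genes (0.0142%) did, and 0 of their 9 probes passed among 31069 tested probes, where 2 (0.00644%) did. The 2 genes were Chst4 and Zfhx3, and not Terf2ip, for which the probe with the higher mean stood, the one higher in knockout liver. At an unadjusted p under 0.05, 2 of the 9 were higher in Rap1 -/- liver, Col3a1 and Acta2, where 4.01% of tested genes were higher, and 0 were lower, where 2.35% were (6.36% in either direction). For 0 of the 9 did all 4 knockout arrays lie above all 4 wild-type arrays, as for 3.01% of tested genes, and for 0 did they all lie below, as for 1.3%. The difference was above 0 for 7 of the 9, against 56.1% of tested genes, and its median was 0.17, against 0.02 over all tested genes.

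**Figure D1:**
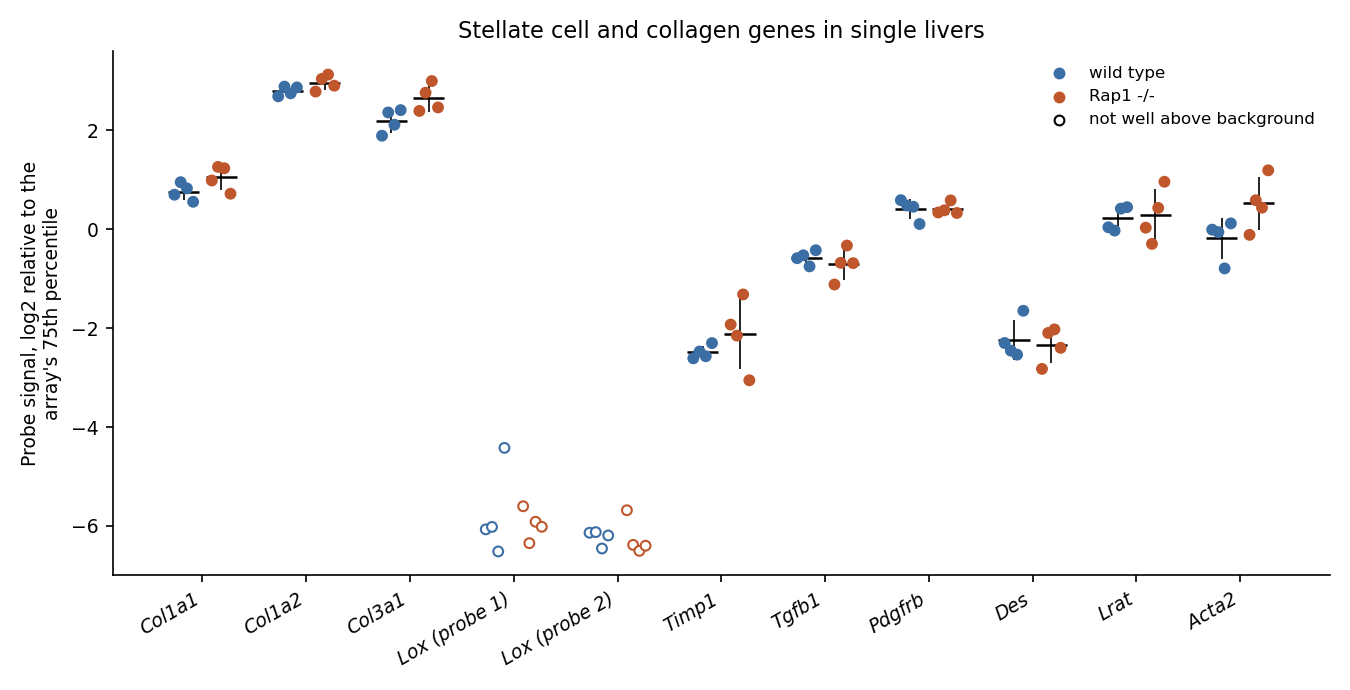
Level of each probe in each liver, as log2 of the signal relative to the array's 75th percentile, for wild-type (blue) and Rap1 -/- (orange) mice in replicate order from left to right. Horizontal bars are means and whiskers ± 1 SD (n = 4), open circles were not well above background, and the genotypes overlap for every gene.

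Col1a1 and Col1a2 encode the chains of type I collagen, the main fibril of scar tissue, and Col3a1 the chain of type III collagen, which is laid down with it. All 3 were higher on average in Rap1 -/- liver, by 1.12-fold to 1.37-fold, without passing the test.

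Col3a1 (probe A_51_P515605) was at 1.89, 2.36, 2.11 and 2.41 in wild-type replicates 1 to 4 and at 2.39, 2.76, 3.00 and 2.46 in knockout replicates 1 to 4. The lowest knockout liver fell just under the highest wild-type liver, and the other 3 knockout livers lay above all wild-type livers. The difference was 0.46 (SE 0.17, 95% interval 0.07 to 0.85), a 1.37-fold higher signal (limma, unadjusted p = 0.0253, adjusted p = 0.770). By an exact, two-sided permutation of the genotype over all 70 groupings of the arrays p was 0.0571, where 0.0286 is the smallest possible. The difference was 0.45 within slide 1 and 0.47 within slide 2. By unadjusted p Col3a1 ranked 435 among the 14066 genes.

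Col1a1 (probe A_55_P2118520) was at 0.70, 0.95, 0.83 and 0.55 in wild-type and at 0.99, 1.26, 1.23 and 0.72 in knockout liver. Knockout replicate 4 lay inside the wild-type range and the other 3 above it. The difference was 0.29 (SE 0.15, 95% interval -0.04 to 0.63; limma, adjusted p = 0.789), and the exact permutation p was 0.114. It was 0.30 within slide 1 and 0.29 within slide 2.

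Col1a2 (probe A_51_P182303) varied least of the 3 collagens, at 2.69, 2.88, 2.75 and 2.87 in wild-type and at 2.78, 3.04, 3.13 and 2.90 in knockout liver. Again 1 knockout liver, here replicate 1, lay inside the wild-type range. The difference was 0.17 (SE 0.11, 95% interval -0.08 to 0.41; limma, adjusted p = 0.829), with an exact permutation p of 0.114.

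Across the 8 livers Col1a2 and Col3a1 varied together. Pearson's r was 0.97 (exact permutation p = 0.000198, adjusted over the 36 pairs of tested genes 0.00714), and Spearman's rho was 0.93 (exact permutation p = 0.00223, adjusted 0.0804). Without the 2 livers farthest from the median of Col1a2 r was 0.92. It was 0.98 among the 4 wild-type livers, 0.97 among the 4 knockout livers, 0.93 on slide 1 and 1.00 on slide 2. Col1a1, whose chain pairs with that of Col1a2, followed them less closely, with r = 0.69 to Col1a2 and 0.71 to Col3a1 (exact permutation p = 0.0560 and 0.0438, both 0.439 after adjustment). Spearman's rho was 0.60 to Col1a2 and 0.52 to Col3a1 (exact permutation p = 0.132 and 0.197, adjusted 0.595 and 0.644). Leaving out the 2 livers farthest from the median of Col1a1, which narrows its range, gave an r of -0.06 to Col1a2 and 0.12 to Col3a1. To Col1a2 and Col3a1, r was 0.94 and 0.99 on slide 1 and 0.73 and 0.72 on slide 2. It was 0.12 and 0.01 among wild-type livers and 0.68 and 0.78 among knockout livers.

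**Figure D2:**
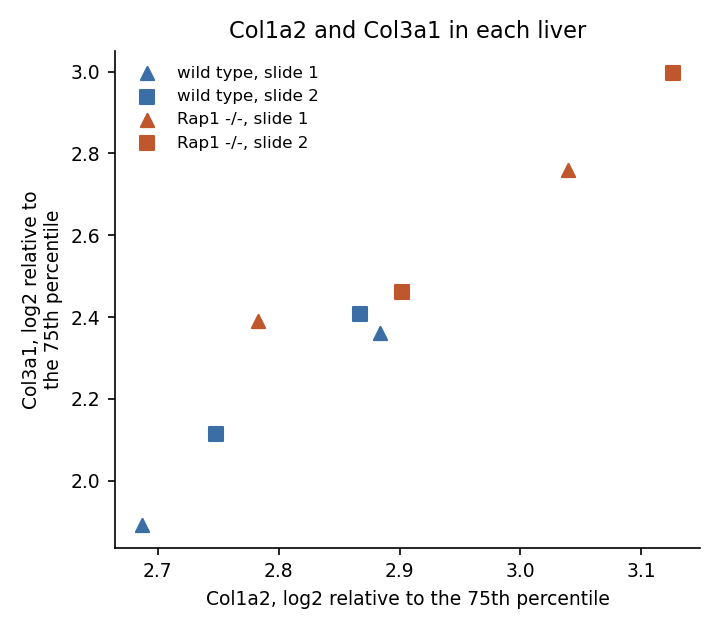
Level of Col1a2 (horizontal) against Col3a1 (vertical) in each of 8 livers, both as log2 relative to the array's 75th percentile, with genotype by colour and slide by shape. The points lie along 1 rising line (r = 0.97), and knockout replicates 2 and 3 are at its upper end.

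The sequences just before the start of both genes are shown because these transcripts varied together. RefSeq held a promoter window for 7 of the 10 genes, and Col1a1, Lox and Pdgfrb were not matched. Each line gives the 250 bases before the start on the strand of the gene, from GRCm38.p6, and capitals mark 3 motifs searched on both strands, namely CCAAT of the CCAAT box, GGGCGG of the GC box and TATAAA of the TATA box.
Col1a2 (chr6:4505368-4505617, + strand): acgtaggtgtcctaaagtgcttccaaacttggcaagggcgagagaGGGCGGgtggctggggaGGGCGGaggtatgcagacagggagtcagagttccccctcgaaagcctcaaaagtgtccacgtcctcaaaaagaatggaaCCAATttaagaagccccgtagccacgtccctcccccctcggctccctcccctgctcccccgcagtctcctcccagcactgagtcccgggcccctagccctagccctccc
Col3a1 (chr1:45311288-45311537, + strand): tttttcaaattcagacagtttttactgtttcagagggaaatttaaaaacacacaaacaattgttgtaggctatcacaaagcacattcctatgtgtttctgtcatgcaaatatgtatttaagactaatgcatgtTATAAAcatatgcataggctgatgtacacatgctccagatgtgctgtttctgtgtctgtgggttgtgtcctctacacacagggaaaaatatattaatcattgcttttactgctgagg

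The Col1a2 window held CCAAT once, from 109 to 105 bases before the start, and GGGCGG 2 times, from 205 to 200 and from 188 to 183 bases before it. The Col3a1 window held neither, and held TATAAA once, from 117 to 112 bases before the start. No match overlapped another. Of 32851 promoter windows of the same length, 33.8% held CCAAT, 32.7% GGGCGG and 12.4% TATAAA, so none of these letters was rare. The 2 windows shared no match of the 3 motifs.

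By the deviation of each array from the mean of its genotype over 8 arrays, the 5 tested genes most like Col1a1 were P3h4 (r = 0.97), E4f1 (0.95), Ddx52 (0.95), Bex1 (0.94) and C4b (0.94). P3h4, named for the prolyl 3-hydroxylase family, had a difference of -0.0079 (SE 0.14; limma, adjusted p = 0.998). E4f1 and C4b lay below 0, at -0.41 (SE 0.12) and -0.23 (SE 0.10), and Bex1 above it, at 0.38 (SE 0.25). These were the closest of all tested genes, so such values of r are a description.

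Of 7 tested collagens of other fibrils and of fibril-associated kinds, 4 lay above 0 and 3 below, with a median of 0.08 and 0 at an unadjusted p under 0.05. The smallest p was that of Col5a3, a type V chain, at 0.30 (SE 0.17), followed by Col6a2 at -0.11 (SE 0.15) and Col5a1 at 0.09 (SE 0.13). Of 7 basement membrane collagens 5 lay above 0, with a median of 0.27. Col4a5, a type IV chain, averaged -1.77 ± 0.24 (SD, n = 4) in the wild type and -1.25 ± 0.13 in the knockout. All 4 knockout livers lay above all wild-type livers, as for 3.01% of all tested genes, and Col4a5 did not pass over all genes (difference 0.52, SE 0.14; limma, unadjusted p = 0.00439, adjusted p = 0.770). Col4a2 was at 0.27 (SE 0.19) and Col4a4 at -0.26 (SE 0.16).

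Lox, the lysyl oxidase gene, was well above background on 0 of 8 arrays by either probe, so these arrays give it no fold. Probe A_55_P2032678 read from -6.51 to -4.42 in wild-type and from -6.35 to -5.60 in knockout liver, and probe A_66_P138929 from -6.46 to -6.12 and from -6.50 to -5.68. Of 23 tested genes that fold, modify or cross-link collagen, 15 lay above 0, with a median of 0.03, and 1 was higher at an unadjusted p under 0.05, near the 4.01% of all tested genes. That gene was Ppib, a prolyl isomerase of the endoplasmic reticulum, with a mean of 5.90 ± 0.08 (SD, n = 4) in the wild type and 6.11 ± 0.06 in the knockout. The 2 genotypes did not overlap for Ppib, as for 3.01% of all tested genes in this direction, and the difference of 0.20 (SE 0.09) did not pass (limma, adjusted p = 0.779). Sparc, a collagen-binding matrix protein, was at 0.27 (SE 0.13), and P4hb, a subunit of prolyl 4-hydroxylase, at 0.22 (SE 0.11). Loxl4, a relative of Lox named after its value was seen, had the widest difference of the 23 at 1.25 with an SE of 0.74, and was well above background on 2 wild-type and 3 knockout arrays.

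Timp1 (probe A_55_P1985850) was at -2.61, -2.47, -2.57 and -2.30 in wild-type and at -1.93, -2.15, -1.32 and -3.05 in knockout liver. Knockout livers spread far more widely, with an SD of 0.72 against 0.14. Replicate 4 was the lowest of all 8 livers and the other 3 knockout livers were the highest. The difference was 0.38 (SE 0.31, 95% interval -0.33 to 1.08; limma, adjusted p = 0.864), with an exact permutation p of 0.400. Without knockout replicate 4 it was 0.69 (limma, adjusted p = 0.758) and without knockout replicate 3 it was 0.11. Of 10 tested proteases and inhibitors of matrix turnover 6 lay above 0, with a median of 0.02 and 0 at an unadjusted p under 0.05. The smallest p values were those of Mmp19 at 0.24 (SE 0.12), Mmp14, a membrane-bound collagenase, at -0.28 (SE 0.22), and Timp3, another protease inhibitor, at 0.26 (SE 0.27).

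**Figure D3:**
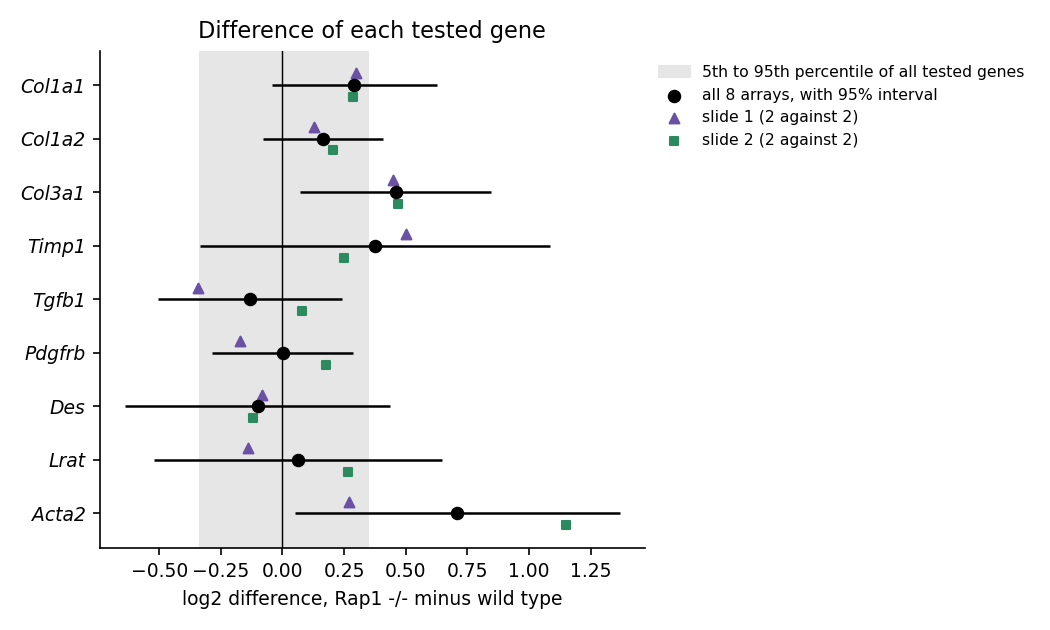
Difference of each tested gene, Rap1 -/- minus wild type on the log2 scale, with its 95% interval over 8 arrays (black) and the values within slide 1 (triangles) and slide 2 (squares), over a grey band from the 5th to the 95th percentile of all tested genes (-0.33 to 0.35). Col3a1 and Acta2 have intervals above 0, Col1a1 and Col3a1 have nearly the same value on both slides, and Tgfb1, Pdgfrb and Lrat lie on different sides of 0 on the 2 slides.

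Tgfb1 encodes transforming growth factor beta 1, the best known inducer of collagen synthesis in stellate cells. Tgfb1 (probe A_51_P390715) was at -0.59, -0.53, -0.75 and -0.42 in wild-type and at -1.12, -0.68, -0.33 and -0.69 in knockout liver. Knockout replicate 1 was the lowest and knockout replicate 3 the highest of all 8 livers. The difference was -0.13 (SE 0.16, 95% interval -0.50 to 0.24; limma, adjusted p = 0.910), and it was -0.34 within slide 1 and 0.08 within slide 2.

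Of 19 tested ligands, activators, receptors and SMADs of the pathway 11 lay above 0, with a median of 0.04 and 0 at an unadjusted p under 0.05. Tgfb2, another ligand, was at 0.48 (SE 0.22). Thbs1, a thrombospondin that can free the latent ligand, was at 0.45 (SE 0.21) and was well above background on 2 wild-type and 3 knockout arrays. Ltbp1, which holds the ligand in the matrix, was at -0.22 (SE 0.12; limma, unadjusted p = 0.0916, adjusted p = 0.796). For Ltbp1 all 4 knockout livers lay below all wild-type livers, as for 1.3% of all tested genes. Of 11 genes known to respond to the pathway 8 lay above 0, with a median of 0.10. Some of the 11 also stand in the pathway list or among the activated markers below, so these counts are not separate. Ccn2, connective tissue growth factor, averaged 0.72 ± 0.34 (SD, n = 4) in the wild type and 1.42 ± 0.64 in the knockout, a difference of 0.70 (SE 0.31; limma, unadjusted p = 0.0507, adjusted p = 0.780). Tgif1 was at 0.26 (SE 0.14).

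Pdgfrb encodes the beta receptor of platelet-derived growth factor, found on stellate cells and pericytes. Pdgfrb (probe A_55_P1957249) was at 0.59, 0.48, 0.45 and 0.11 in wild-type and at 0.34, 0.38, 0.58 and 0.33 in knockout liver. All 4 knockout livers lay inside the wild-type range. The difference was 0.00 (SE 0.13), with a 95% interval from -0.28 to 0.29 (limma, adjusted p = 0.999). The other 5 genes of the family, its ligands and the alpha receptor, all lay above 0, where 56.1% of all tested genes did. Their median was 0.28, and 0 had an unadjusted p under 0.05. The ligand genes Pdgfc, Pdgfa and Pdgfd were at 0.52 (SE 0.31), 0.28 (SE 0.21) and 0.63 (SE 0.58), and Pdgfd was well above background on 2 arrays of each genotype.

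Des encodes desmin, an intermediate filament of stellate and muscle cells. Des (probe A_51_P335969) was at -2.30, -2.46, -2.54 and -1.65 in wild-type and at -2.82, -2.10, -2.03 and -2.40 in knockout liver. The highest liver was wild type and the lowest knockout, with the others mixed. The difference was -0.10 (SE 0.24, 95% interval -0.64 to 0.44; limma, adjusted p = 0.961).

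The 5 tested genes most like Des across the 8 arrays were Speg (r = 0.99), Rab29 (0.98), Usf3 (0.98), Mapkapk2 (0.97) and Sla (0.97). Speg, a kinase gene of striated muscle, is the next protein-coding gene to Des on chromosome 1 in RefSeq. Its own difference was -0.23 (SE 0.21; limma, adjusted p = 0.881). Des also varied with Tgfb1, with r = 0.80 (exact permutation p = 0.0221, adjusted 0.399) and rho = 0.81 (exact permutation p = 0.0218, adjusted 0.392), which did not pass over the 36 pairs. Without the 2 livers farthest from the median of Tgfb1 r was 0.68, and it was 0.74 on slide 1 and 0.83 on slide 2.

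Lrat (probe A_52_P669005), the retinyl ester-forming enzyme, was at 0.04, -0.03, 0.42 and 0.45 in wild-type and at 0.03, -0.30, 0.43 and 0.96 in knockout liver. In both genotypes the livers of slide 2 were higher than those of slide 1. The difference was 0.06 (SE 0.26, 95% interval -0.52 to 0.65; limma, adjusted p = 0.987). Of 15 tested genes of vitamin A storage and retinoid handling 8 lay above 0, with a median of 0.02. Of these 15, 1 was higher at an unadjusted p under 0.05, where 4.01% of all tested genes were. Aldh1a1, a retinaldehyde dehydrogenase that hepatocytes also express, averaged 7.45 ± 0.20 (SD, n = 4) in the wild type and 7.89 ± 0.15 in the knockout. All 4 knockout livers lay above all wild-type livers, as for 3.01% of all tested genes. Aldh1a1 did not pass over all genes (difference 0.44, SE 0.13; limma, unadjusted p = 0.00810, adjusted p = 0.770). Rara, a retinoic acid receptor, was at -0.23 (SE 0.16).

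Acta2 encodes smooth muscle actin alpha 2, which marks myofibroblasts and also vascular smooth muscle. Acta2 (probe A_52_P420504) was at -0.01, -0.06, -0.79 and 0.12 in wild-type and at -0.11, 0.59, 0.44 and 1.19 in knockout liver. Knockout replicate 1 lay among the wild-type livers and the other 3 above them, while wild-type replicate 3 was the lowest. The difference of 0.71 (SE 0.29, 95% interval 0.05 to 1.37), a 1.64-fold higher signal, was the widest of the 9 genes and did not pass over all genes (limma, unadjusted p = 0.0374, adjusted p = 0.770). The exact permutation p was 0.114. It was 0.27 within slide 1 and 1.15 within slide 2, and 0.49 without knockout replicate 4.

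Vascular smooth muscle and pericyte markers were read beside Acta2. Of 9 tested, 8 lay above 0 with a median of 0.13, where 56.1% of all tested genes lay above 0. At an unadjusted p under 0.05, 1 was higher, where 4.01% of all tested genes were. The summed signal of the list ran from 63.0 to 80.9 times the 75th percentile in wild-type arrays and from 52.7 to 103 in knockout arrays. Rgs5, a pericyte gene, averaged -0.16 ± 0.23 (SD, n = 4) in the wild type and 0.31 ± 0.38 in the knockout (difference 0.47, SE 0.20; limma, unadjusted p = 0.0424, adjusted p = 0.774). Cnn1 and Actg2, contractile genes of smooth muscle, were at 1.19 (SE 0.61) and 0.59 (SE 0.43), and Cnn1 was well above background on 2 wild-type and 4 knockout arrays. The part of these cells in the Acta2 values was not tested.

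A longer list of markers of resting stellate cells gave no common direction. All 20 were tested, 11 lay above 0 and 9 below, and the median was 0.02. Their summed signal ran from 229 to 284 in wild-type and from 231 to 265 in knockout arrays. Ntm, a cell adhesion molecule, was at -0.48 (SE 0.20; limma, unadjusted p = 0.0368, adjusted p = 0.770), Rgs5 is given above, and Reln, which encodes reelin, was at -0.25 (SE 0.15).

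Of 21 tested markers of activated stellate cells and myofibroblasts 15 lay above 0, where 56.1% of all tested genes did, with a median of 0.13. At an unadjusted p under 0.05, 3 of the 21 were higher, where 4.01% of all tested genes were, and 0 were lower. Mgp, matrix Gla protein, averaged 1.33 ± 0.29 (SD, n = 4) in the wild type and 1.81 ± 0.21 in the knockout (difference 0.48, SE 0.17). Postn, periostin, was at -0.53 ± 0.13 and -0.27 ± 0.07 (difference 0.26, SE 0.10), and for both genes all knockout livers lay above all wild-type livers, as for 3.01% of all tested genes. Fap, a fibroblast surface protease, was at 0.34 (SE 0.14). Each of the 3 had an adjusted p of 0.770 (limma). The summed signal of the list ran from 556 to 634 in wild-type and from 544 to 644 in knockout arrays, so it overlapped. Fn1, named after its level was seen, contributes much to this sum, at a wild-type mean of 8.51 and a difference of -0.06 (SE 0.10). The mean log2 level of the list was 1.16, 1.18, 1.11 and 1.24 in wild-type replicates 1 to 4. In knockout replicates 1 to 4 it was 1.11, 1.49, 1.39 and 1.29, so replicate 1 lay inside the wild-type range and the others above it.

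**Figure D4:**
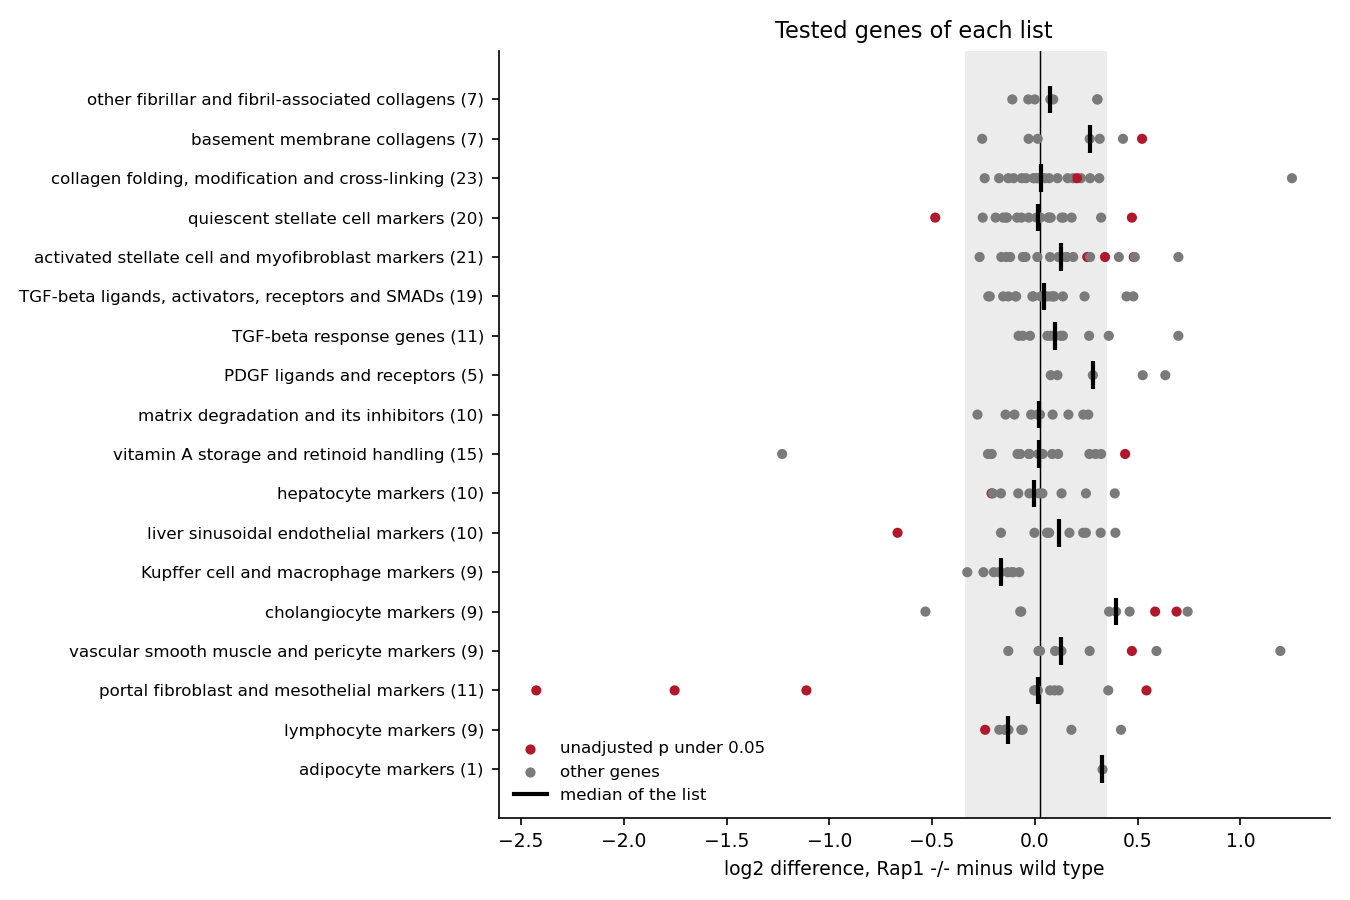
Difference of every tested gene in each list, Rap1 -/- minus wild type on the log2 scale, with the number tested in brackets, list medians as black bars, genes at an unadjusted p under 0.05 in red, the 5th to 95th percentile of all tested genes as a grey band and their median (0.02) as a line. Medians of the stellate and collagen lists lie between 0.02 and 0.27, and no gene shown passed over all genes.

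To set the collagens against the stellate markers, the deviation of each liver from the wild-type mean was averaged over Col1a1, Col1a2 and Col3a1 and over Des, Lrat, Pdgfrb and Acta2, as a description with no test. The collagens deviated by 0.14, 0.44, 0.54 and 0.11 in knockout replicates 1 to 4, a mean of 0.31 ± 0.21 (SD, n = 4), where wild-type livers spread with an SD of 0.13. The stellate markers deviated by -0.19, 0.09, 0.30 and 0.47, a mean of 0.17 ± 0.29, where the wild-type SD was 0.16. The collagens thus lay above the stellate markers in knockout replicates 1, 2 and 3 and below them in replicate 4. In wild-type replicates 1 to 4 the collagens minus the stellate markers was -0.19, 0.22, 0.15 and -0.18, so they lay above in replicates 2 and 3.

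Collagens minus stellate markers was 0.33, 0.35, 0.23 and -0.36 in the knockout livers, a mean of 0.14 ± 0.33 (SD, n = 4), and its wild-type SD was 0.21, so the mean lay within the spread of either genotype. It was 0.32 within slide 1 and -0.05 within slide 2. Acta2 carried most of the stellate value. Without it the stellate markers averaged -0.01 ± 0.23, and the collagens lay above them by 0.42, 0.57, 0.34 and -0.05, a mean of 0.32 ± 0.27 against a wild-type SD of 0.20. Acta2 had the widest difference of these markers, so leaving it out had to raise the value, and the rise is no separate result.

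**Figure D5:**
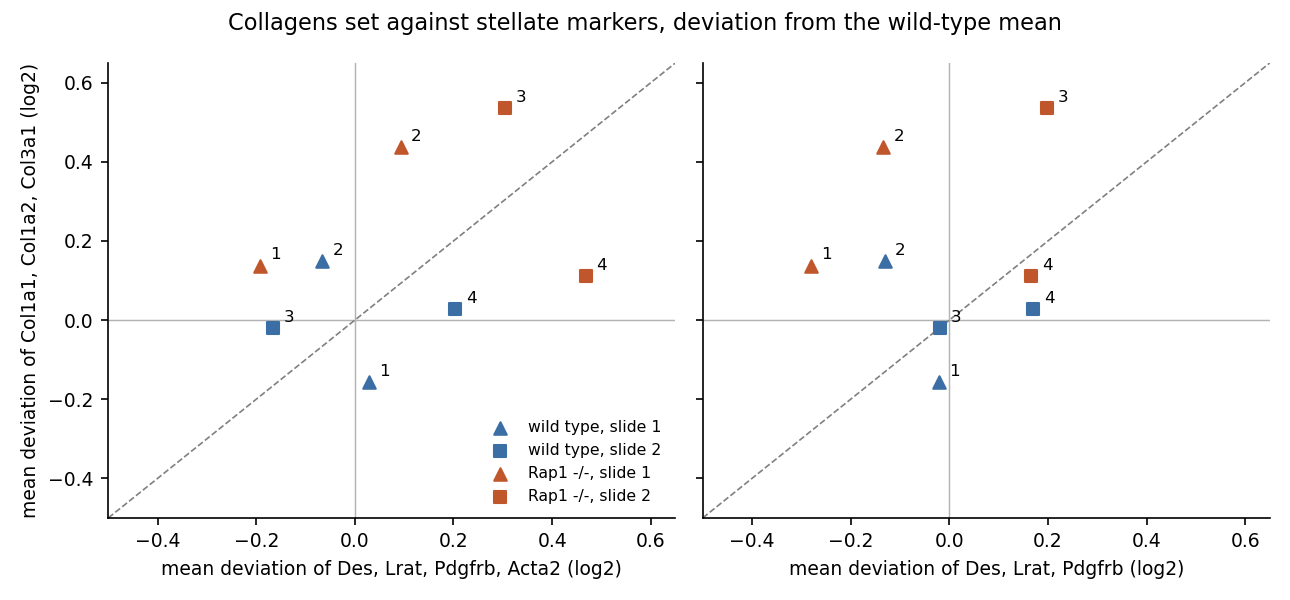
Mean deviation from the wild-type mean (log2) of the 3 collagens (vertical) against that of the stellate markers (horizontal) in each liver, with Acta2 (left) and without it (right). Numbers are replicates, shape is the slide and the dashed line marks equal deviation, above which knockout replicates 1, 2 and 3 and wild-type replicate 2 lie in both panels. Wild-type replicate 3 lies above it in the left panel.

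Markers of other liver cells were read beside these values. The hepatocyte markers, all 10 tested, had a median of 0.00 with 5 on either side of 0. Their summed signal, to which Alb and Serpina1c contribute much, ran from 6361 to 7068 in wild-type and from 5884 to 6135 in knockout arrays, so these sums did not overlap. They are relative to the 75th percentile, which was 179 to 209 in wild-type and 220 to 227 in knockout arrays. The part of that scaling in the separation was not tested. The mean log2 level of the 10 markers did overlap, at 8.01 to 8.27 in wild-type and 8.09 to 8.25 in knockout arrays. Of the 10, 1 had all knockout livers below all wild-type livers, as for 1.3% of all tested genes. Alb, albumin, was at 11.0 ± 0.09 (SD, n = 4) and 10.8 ± 0.03, a difference of -0.21 (SE 0.09; limma, unadjusted p = 0.0379, adjusted p = 0.770), Serpina1c was at -0.20 (SE 0.11) and Tdo2 at 0.39 (SE 0.17). Of 10 sinusoidal endothelial markers 7 lay above 0 (median 0.12, sums from 90.4 to 127 and from 94.9 to 134), with Lyve1, a hyaluronan receptor, at -0.67 (SE 0.29), Fcgr2b at 0.39 (SE 0.25) and Kdr at -0.16 (SE 0.12). At an unadjusted p under 0.05, 1 of the endothelial markers was lower, where 2.35% of all tested genes were. All 9 tested Kupffer cell and macrophage markers lay below 0, where 56.1% of all tested genes lay above it. Their median was -0.17, with sums from 197 to 272 and from 154 to 261, and 0 at an unadjusted p under 0.05. Their mean log2 level was 3.20, 3.89, 3.90 and 3.54 in knockout replicates 1 to 4 and ran from 3.52 to 4.00 in wild-type arrays. Timd4, Clec4f and Cd5l were at -0.33 (SE 0.19), -0.20 (SE 0.15) and -0.25 (SE 0.22).

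Of 9 cholangiocyte markers 6 lay above 0, with a median of 0.40, sums from 5.33 to 7.80 in wild-type and from 6.66 to 13.0 in knockout arrays. At an unadjusted p under 0.05, 2 of the 9 were higher, where 4.01% of all tested genes were. These were Krt19, a bile duct keratin, at 0.59 (SE 0.19), and Spp1, osteopontin, at 0.69 (SE 0.24), and Krt23 was at 0.74 (SE 0.37). Portal fibroblast and mesothelial markers, which cells that also make collagen carry, did not move as 1 group. Of 11 tested 7 lay above 0 and the median was 0.01, with sums from 50.4 to 79.3 and from 49.7 to 97.9. At an unadjusted p under 0.05, 3 were lower, where 2.35% of all tested genes were, and 1 was higher, where 4.01% were. The higher gene was Dpt, dermatopontin, at 0.54 (SE 0.23; limma, unadjusted p = 0.0438, adjusted p = 0.776), which is named after its value was seen. The mesothelial genes Upk3b, Msln and Wt1 were at -2.43 (SE 0.66), -1.75 (SE 0.64) and -1.11 (SE 0.41), with limma's unadjusted p at 0.00555, 0.0226 and 0.0251 and an adjusted p of 0.770 for each, and just 1 of the 4 knockout arrays read Upk3b well above background. Of 9 lymphocyte markers 2 lay above 0 (median -0.13, sums from 40.3 to 66.0 and from 41.3 to 49.7), with Cd3e at -0.24 (SE 0.10), Klrb1c at 0.42 (SE 0.29) and Nkg7 at -0.14 (SE 0.10). At an unadjusted p under 0.05, 1 of the lymphocyte markers was lower, where 2.35% of all tested genes were. For 1 of them all knockout livers lay below all wild-type livers, as for 1.3% of all tested genes. Of the adipocyte markers only Cidec was tested, at 0.33 (SE 0.43). The part of these cells in the collagen and stellate values was not tested.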

How the data were processed

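Liver RNA of 8 mice was labelled in a single colour and hybridized to Agilent mouse arrays, as 4 wild-type and 4 Rap1 -/- samples grouped by the sample titles. The deposited spot values are linear intensity that Agilent Feature Extraction had background-subtracted but not scaled between arrays (release 10.7.3.1 per the file headers, another release in the study's methods). The authors also deposited a value table on the log2 scale. It matched the scanner values after normexp (offset 50) and quantile normalization with a median absolute difference of 0.00167, so its scale is log2, it is not centred, and it served as an alternative. The submitters' notes name limma.

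From the processed signal, spots called outliers were left out, log2 values were averaged per probe, and the array's 75th percentile over non-control probes was subtracted (that percentile was 179 to 209 in wild-type and 220 to 227 in knockout arrays). There were 0 saturated spots, and the number of arrays limits the precision. Probes were named by accession through RefSeq of GRCm38.p6 (26056 of 55681 probes, 19752 symbols). The array was annotated on mm9, so the table gave names and gene order only. Probes well above background on at least 4 of 8 arrays were tested (31069), and the probe with the highest mean stood for its gene (14066 genes). A probe dim on all arrays of a genotype gives a bound, each dim value raised to the lowest signal well above background on its array. The genotypes were compared by limma 3.58.1 (lmFit, eBayes) under R 4.3.3 with no covariate, with Benjamini-Hochberg adjustment over all genes and a threshold of 0.05. The labels call the mice biological replicates. In simulated data with 200 changed genes the procedure called 32.0% of 1.5-fold, 66.4% of 2-fold and 92.6% of 4-fold changes. Differences as small as those given here were thus often missed there.

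Named genes are the 10 genes, the targeted gene, genes past the threshold, up to 3 genes of each list with the smallest p, and the 5 genes most like Col1a1 and most like Des. Single genes that the rule names but that are withheld are not reported here. The genes, lists and rules were chosen with earlier results of these data known. Some genes, such as Sparc, Ccn2 and Rgs5, stand in several lists, so counts of different lists are not separate. Alternatives were other normalizations, filters, probe and variance rules, slide, the replicate number as a block, and each array left out. For normexp the median spot signal took the place of the mean signal, which the files used here do not carry.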

Additional observations from a re-analysis of the deposited data

Results flagged for a closer look

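In 150 pairs of a named gene or Lox probe and a genotype, 1 of the 4 livers was checked for standing apart from the other 3, by its gap to the nearest of them as a share of the group's whole range (Dixon's 95% critical value, which chance passes in about 1 in 20 groups). It stood apart in 11 pairs, 0 of them of the 9 tested stellate and collagen genes. Lox probe A_66_P138929 was the exception among the 10 genes, with knockout replicate 1 highest (0.853 of the range), at -5.68 where the other 3 lay from -6.50 to -6.38, and all of these were below the level called well above background.

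Among genes of the lists, wild-type replicate 1 was lowest for Mgp (0.839 of the range) and highest for Nkg7 (0.845), and wild-type replicate 4 was lowest for Klrb1c (0.881). Mgp is the activated stellate marker with the smallest p, and its wild-type liver at 0.89 lay under the other 3 at 1.43 to 1.53. Among knockout livers, replicate 1 was highest for Pdgfa (0.913) and lowest for Ltbp1 (0.924), and replicate 2 was highest for Wt1 (0.943), at -1.23 where the other 3 lay from -2.80 to -2.71.

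Wild-type replicate 4 was highest for Rab29 (0.866) and Sla (0.871), which are among the genes most like Des, and it was also the highest wild-type liver for Des. Of the 2 genes that passed, knockout replicate 1 was highest for Chst4 (0.877), where no knockout array was well above background, and lowest for Zfhx3 (0.879).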

How the results depend on the processing

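The count of the 10 genes past the threshold was 0 in all 20 alternatives. Col1a1 (0.22 to 0.40), Col1a2 (0.11 to 0.23), Col3a1 (0.33 to 0.55), Timp1 (0.11 to 0.69) and Acta2 (0.27 to 1.15) kept their direction in all 20. Part of this was fixed in advance. Another filter, probe rule or variance rule, or a slide or replicate block, left the difference of each tested gene of the 10 as it was. Such settings could change its SE and p only. The other alternatives reuse the same livers, so the 20 are not separate checks of direction. Without wild-type replicate 3, knockout replicate 2 or knockout replicate 3, 0 of the genes had an unadjusted p under 0.05 in place of 2, 1 had without wild-type replicate 1 or 2 and within either slide, and 3 with the replicate block or without knockout replicate 4. Small differences turned their sign. Pdgfrb was at -0.013 with quantile normalization and with cyclic loess, -0.17 within slide 1, -0.10 without wild-type replicate 4 and -0.057 without knockout replicate 3, and up to 0.062 with another array left out. Lrat was at -0.14 within slide 1, -0.019 without wild-type replicate 2 and -0.16 without knockout replicate 4, and up to 0.26 with another array left out. Tgfb1 was at 0.080 within slide 2, and from -0.26 to 0.0075 (without knockout replicate 1) with 1 array left out. Des ran from -0.20 to 0.094 (without wild-type replicate 4), and was at 0.062 without knockout replicate 1. Collagens minus stellate markers ran from -0.048 (within slide 2) to 0.32 (within slide 1), always within 1 SD of 0.14, and from 0.068 to 0.30 with 1 array left out.

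Over all tested genes the replicate numbers showed no pairing of the livers, which does not exclude one. Correlations of deviations between livers of the same number were 0.09, -0.18, -0.07 and 0.10, and no liver correlated best with its own number. With the replicate block 0 of the genes passed, as without it. For Col1a1 the SE was 0.098 with this block (limma, unadjusted p = 0.0265) and 0.15 without it (limma, unadjusted p = 0.0809). For Des the SE was 0.25 with the block and 0.24 without it. Over all genes, 2 passed, against 0 with normexp and quantile normalization, the authors' table, within slide 1 and with the replicate block, and 1 with quantile normalization, without the filter, with probes well above background on all 8 arrays, with slide as a block, within slide 2 and with any 1 array left out (1 to 1). It was 2 with cyclic loess, and 3 with the mean of all tested probes and with trended and robust variance. Of probes, 2 passed, against 0 for those well above background on all 8 arrays and within slide 1, 1 in the authors' table, within slide 2 and with the replicate block, 4 with trended and robust variance, and 1 to 2 with 1 array left out. The cause was not tested, other than that within 1 slide fewer arrays enter. With 4 livers a side, intervals of single genes were as wide as those given, and position on the slide cannot be told apart from genotype. No normalization moved the median of all genes by over 0.1.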
